A study of Mus musculus with 6 samples.

Results

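The receptors for BMPs, activins and TGF-beta were followed as a group of 10 genes in lung cells of newborn mice, selected for endothelium, from Smad4 mutants and controls. Smad4 RNA was lower in the mutants but not absent, at 46.9% of the control mean, and RNA of other cell types was also present. They were taken as a named gene family, and the choice was made with earlier results of these data known. These are the type II receptors Bmpr2, Acvr2a, Acvr2b and Tgfbr2, the type I receptors Acvrl1, Bmpr1a, Acvr1 and Tgfbr1, and the co-receptors Eng and Tgfbr3. They are 10 of the 24951 genes in the deposited counts, and all 10 were among the 14934 genes abundant enough to be tested.

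Lungs were taken from pups at postnatal day 5, and cells were pulled from the digested tissue with beads against CD31, a surface protein of endothelial cells. The 3 mutant libraries came from Smad4 f/f;Cdh5-CreERT2 pups, in which the Cdh5 promoter drives a tamoxifen-inducible Cre in endothelial cells (Smad4 iECKO). The 3 control libraries came from Smad4 f/f pups without Cre, which the sample labels call wildtype. Floxed Smad4 was thus shared by both groups, and no group had Cre with intact Smad4. The labels give neither the dose nor the day of tamoxifen, so the time since deletion is not known here. They call the samples biologically independent. The names of all 6 count columns carry 1 common tag that the labels leave unexplained, and whether the pups were littermates is not known here. Assigned reads were 16041786 to 20172318 per mutant library and 14093564 to 21113926 per control library. Levels are CPM, the count of a gene scaled to a common total of assigned reads, after scaling by trimmed mean of M values (TMM), and 3 counts in a library were worth 0.142 to 0.213 CPM.

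Signals of this family are received by complexes of type I and type II serine/threonine kinases. A ligand brings both types together, the type II receptor phosphorylates the type I receptor, and the type I receptor phosphorylates receptor SMADs, which enter the nucleus with SMAD4. In endothelium, BMP9 and BMP10 bind ALK1, the product of Acvrl1, together with BMPR2 or an activin type II receptor, and endoglin, the product of Eng, presents them. Inherited loss of ENG, ACVRL1 or SMAD4 in people causes hereditary haemorrhagic telangiectasia, and loss of BMPR2 causes heritable pulmonary arterial hypertension.

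The labels were first checked with Smad4 itself. It had 88.8, 72.9 and 94.2 CPM in mutant libraries 1, 2 and 3, against 188, 177 and 181 CPM in control libraries 1, 2 and 3. It was 2.13-fold lower in mutants (log2 fold change -1.09, SE 0.10, adjusted p = 0.000604). Tests are two-sided edgeR quasi-likelihood tests over the 6 libraries, adjusted by Benjamini-Hochberg over all 14934 genes, with a gene called at an adjusted p under 0.05. Under this rule 488 genes were called, 288 higher and 200 lower in mutants. RNA from bulk cells was measured, so fewer cells of a type and less RNA per cell cannot be told apart.

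The promoters of 3 receptors are shown because the genes took different courses here: Bmpr2 was called lower, Acvr2a had lower values in every mutant library without being called, and Eng was not called. Each window is from RefSeq on GRCm38.p6 and covers 250 bases before to 50 bases after an annotated transcript start, in the gene's direction. The Bmpr2 window is chr1:59764029-59764328, the Acvr2a window is chr2:48813859-48814158 and the Eng window is chr2:32646345-32646644, all on the plus strand. In the GENCODE M21 annotation Bmpr2 starts earlier, at chr1:59763400, so its whole window lies inside that gene. The Acvr2a and Eng windows hold the GENCODE starts of their genes, at chr2:48814109 and chr2:32646595. Positions are counted from the RefSeq starts, so the Bmpr2 window is not placed like the others. Capitals mark the SMAD-related motifs found on either strand, GGCGCC (a GC-rich element bound by BMP SMADs) and the SMAD box GTCTG or its complement CAGAC.
Bmpr2: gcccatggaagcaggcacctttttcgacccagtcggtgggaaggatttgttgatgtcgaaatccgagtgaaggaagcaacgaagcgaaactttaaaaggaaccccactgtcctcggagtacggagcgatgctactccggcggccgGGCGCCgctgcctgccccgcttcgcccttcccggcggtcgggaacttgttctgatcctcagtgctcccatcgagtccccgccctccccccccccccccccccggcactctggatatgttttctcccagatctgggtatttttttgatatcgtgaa
Acvr2a: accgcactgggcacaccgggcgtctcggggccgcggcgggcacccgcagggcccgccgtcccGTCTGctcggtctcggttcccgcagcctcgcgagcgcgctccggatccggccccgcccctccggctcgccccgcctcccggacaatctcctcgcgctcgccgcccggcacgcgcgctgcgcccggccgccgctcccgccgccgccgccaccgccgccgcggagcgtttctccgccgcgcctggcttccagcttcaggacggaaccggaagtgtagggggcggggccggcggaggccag
Eng: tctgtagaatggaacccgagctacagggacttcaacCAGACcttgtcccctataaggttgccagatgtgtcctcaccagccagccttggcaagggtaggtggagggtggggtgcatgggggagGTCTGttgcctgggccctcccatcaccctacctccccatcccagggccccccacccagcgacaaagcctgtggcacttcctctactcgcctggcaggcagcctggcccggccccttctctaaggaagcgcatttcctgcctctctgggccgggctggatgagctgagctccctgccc

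The Bmpr2 window held GGCGCC at position -105 from the start and no SMAD box, the Acvr2a window held a SMAD box at -188, and the Eng window held SMAD boxes at -214 and -127. Of 8 members with a promoter entry, 3 had GGCGCC in a window (Bmpr1a and Tgfbr1 besides Bmpr2) and 5 had a SMAD box (Tgfbr1, Acvr2b and Tgfbr2 besides Acvr2a and Eng). Acvr1 had neither. The palindrome GTCTAGAC, the core GTCT next to its reverse complement, was in 0 of the 9 windows of these 8 genes. Among 32851 RefSeq windows of the same length, 11.9% held GGCGCC, 49.6% a SMAD box and 0.213% the palindrome. Windows on chromosome 18 were left out of this set. These shares are per window, while the member counts are per gene over all its windows. The windows with GGCGCC were 79.3% (Bmpr1a), 74.7% (Tgfbr1) and 59.3% (Bmpr2) G or C, and the other windows 52% to 83.7%. The part of base content in these matches was not tested. No matches overlapped in these windows. They describe letters in a window and not binding. Acvrl1 and Tgfbr3 had no entry.

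Across the 10 receptors, 2 fell in mutants (Bmpr2 and Acvrl1), 0 rose and 8 were not called. The background over all genes tested was 3.27% called, made up of 1.34% called lower and 1.93% called higher. Among the 6670 genes at least as abundant as the least abundant receptor, 2.19% were called lower. The estimate was below 0 for 8 receptors, and their median log2 fold change was -0.15, with a range of -1.24 to 0.13, against a median of -0.00242 over all genes tested. Mutant and control values did not overlap for 4 receptors, all lower in mutants (Bmpr2, Acvrl1, Acvr2a and Tgfbr3). By the same measure 20.6% of all genes tested had no overlap, and 9.04% had none and were lower in mutants. At an unadjusted p under 0.05 there were 3 receptors, where 14.0% of all genes passed.

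**Figure D1:**
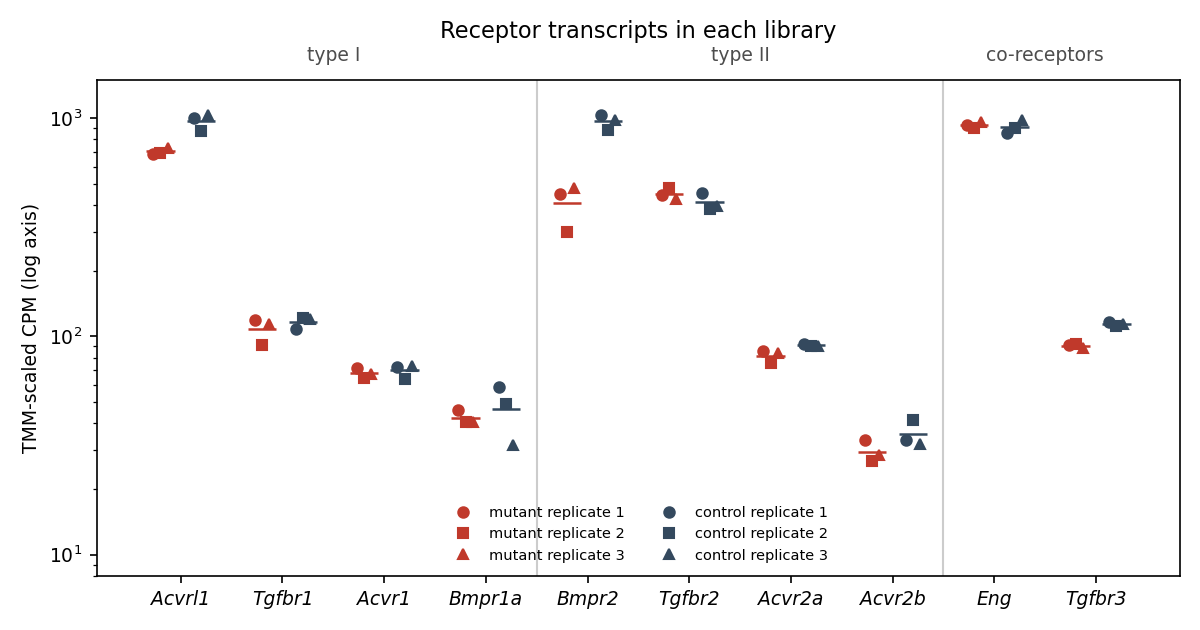
CPM of the 10 receptors in each library, on a log axis, with mutant points left of control points, grouped as type I receptors, type II receptors and co-receptors, where bars mark group means. Bmpr2 lies between 301 and 479 CPM in mutant libraries and between 884 and 1035 CPM in control libraries, and Eng overlaps throughout.

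Bmpr2, the type II receptor that carries BMP signals, had the largest change of the 10. It had 452, 301 and 479 CPM in mutant libraries 1, 2 and 3, against 1035, 884 and 984 CPM in control libraries 1, 2 and 3. Every mutant library lay below every control library, and mutant library 2 was the lowest. The mean was 411 ± 95.6 CPM in mutants and 968 ± 76.5 CPM in controls (SD, n = 3 each). This was 2.36-fold lower (log2 fold change -1.24, SE 0.17, 95% interval -1.61 to -0.86, edgeR adjusted p = 0.00524), or 42.4% of the control mean. Single mutant libraries stood at 46.7%, 31.1% and 49.4% of that mean. Smad4 had the same order among the mutants, lowest in library 2 and highest in library 3. Of all genes tested, 35.3% had their lowest mutant value in library 2, and a link between Bmpr2 and Smad4 levels was not tested. By size of decrease Bmpr2 ranked 55 among the 14934 genes, and by p-value 147. Behind these values lay 8233, 4799 and 9811 reads in mutants and 22176, 12419 and 20410 reads in controls. Bmpr2 lies at chr1:59763400-59879014 on the plus strand (ENSMUSG00000067336.6, GENCODE M21 on GRCm38, the assembly of mm10), and its merged exons span 17983 bp, the longest of the group.

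Tgfbr2, the type II receptor for TGF-beta itself, had 445, 479 and 425 CPM in mutant libraries, against 456, 385 and 395 CPM in control libraries. The groups overlapped. Its mean was 449.8 ± 26.9 CPM in mutants and 412 ± 38.6 CPM in controls, a log2 fold change of 0.13 (SE 0.09, 95% interval -0.08 to 0.33, edgeR adjusted p = 0.603). That interval leaves out changes as large as that of Bmpr2 in either direction.

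Acvr2a and Acvr2b bind activins and can also stand in for BMPR2 in BMP complexes. Acvr2a had 85.5, 75.4 and 83.9 CPM in mutant libraries, against 92.5, 90.0 and 90.4 CPM in control libraries. The groups did not overlap, but the difference was small and not called (log2 fold change -0.16, SE 0.09, edgeR adjusted p = 0.467). Its exons share 446 bp with the neighbouring gene Orc4, a subunit of the origin recognition complex, on the other strand. Since the use of strand in counting is not given in the sources used here, reads of these 2 genes may not be told apart. Orc4 averaged 46.5 CPM in mutants and 52.4 CPM in controls and was not called (adjusted p = 0.560). Acvr2b had 33.5, 26.8 and 28.6 CPM in mutant libraries, against 33.5, 41.5 and 32.0 CPM in control libraries, with overlap (log2 fold change -0.26, SE 0.13, 95% interval -0.56 to 0.03, edgeR adjusted p = 0.422). Neither gene had an estimate above 0.

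**Figure D2:**
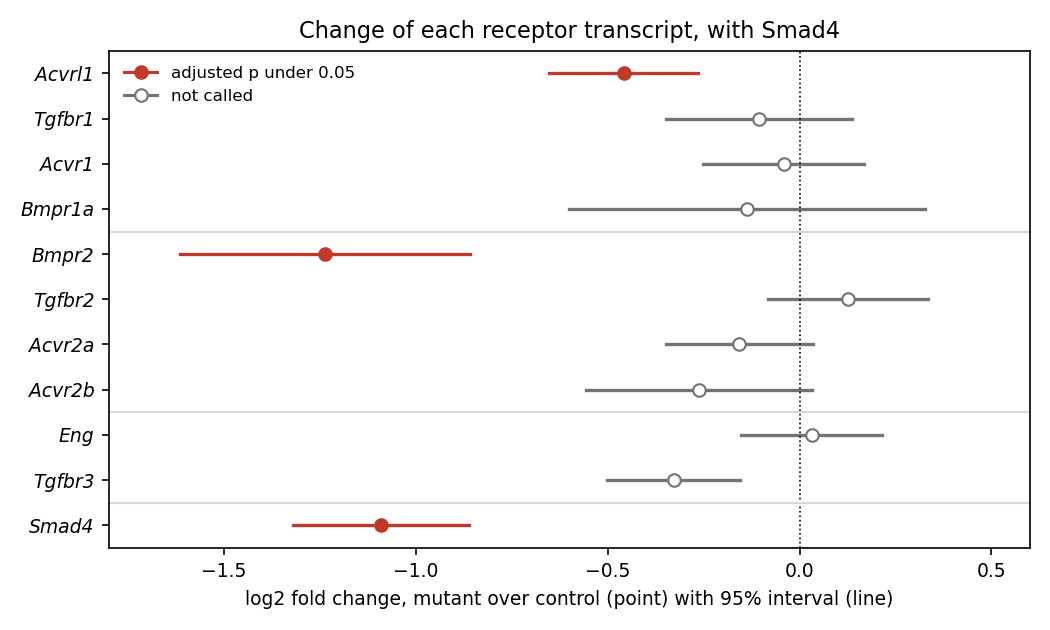
Log2 fold change of mutant over control for the 10 receptors and for Smad4, with 95% intervals computed from the edgeR F statistic. Filled red points mark genes called at an adjusted p under 0.05. Bmpr2 at -1.24 lies close to Smad4 at -1.09, Acvrl1 lies at -0.46, and the other 8 receptors were not called.

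Acvrl1, the endothelial type I receptor for BMP9 and BMP10, was the other receptor that fell. It had 689, 697 and 733 CPM in mutant libraries, against 1001, 879 and 1031 CPM in control libraries. The mutant libraries lay close together and all below the lowest control, library 2. The mean was 706 ± 23.2 CPM in mutants and 970.3 ± 80.6 CPM in controls, a 1.37-fold decrease (log2 fold change -0.46, SE 0.09, 95% interval -0.65 to -0.27, edgeR adjusted p = 0.0175). The call was lost without control library 3, mutant library 1 or mutant library 2, at adjusted p of 0.0736, 0.0793 and 0.103, while the log2 fold change stayed between -0.53 and -0.41 over every alternative tried. Acvrl1 lies at chr15:101128522-101145336 on the plus strand (ENSMUSG00000000530.16).

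The other type I receptors were not called. Tgfbr1, which encodes ALK5, the partner of TGFBR2, had 119, 91.8 and 114 CPM in mutant libraries, against 108, 121 and 121 CPM in control libraries (log2 fold change -0.11, SE 0.11, 95% interval -0.35 to 0.14). Acvr1, which encodes ALK2, averaged 67.9 ± 3.76 CPM in mutants and 69.8 ± 5.03 CPM in controls (log2 fold change -0.04, 95% interval -0.25 to 0.17). For both, mutant and control libraries overlapped and the intervals leave out a 2.36-fold decrease such as that of Bmpr2. Bmpr1a, which encodes ALK3, had 45.9, 40.3 and 40.5 CPM in mutant libraries, against 58.9, 48.8 and 31.7 CPM in control libraries. The controls spanned the mutants, and the interval was the widest of the 10 (log2 fold change -0.14, 95% interval -0.60 to 0.33, edgeR adjusted p = 0.818). Control library 3, the lowest for Bmpr1a, was also the control with the lowest sums of alveolar epithelial, fibroblast and mesothelial markers, and the part of these in the Bmpr1a value was not tested.

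Endoglin and betaglycan are co-receptors that bind ligand without a kinase of their own. Eng had 933, 907 and 966 CPM in mutant libraries, against 857, 904 and 983 CPM in control libraries. The groups overlapped, with means of 935 ± 29.6 CPM in mutants and 915 ± 63.7 CPM in controls (log2 fold change 0.03, SE 0.08, 95% interval -0.15 to 0.22, edgeR adjusted p = 0.904). The interval of Eng thus excluded a decrease the size of that of Acvrl1, its partner in the receptor complex. Tgfbr3, which encodes betaglycan, had 91.5, 92.6 and 88.3 CPM in mutant libraries, against 116, 111 and 114 CPM in control libraries. The spread within each group was small and the groups did not overlap. Its 1.25-fold lower level in mutants missed the threshold (log2 fold change -0.33, SE 0.08, edgeR adjusted p = 0.0532). It was called under 3 alternatives, at 0.0178 with DESeq2, 0.0418 with upper-quartile scaling and 0.0490 with library totals. Eng lies at chr2:32646595-32682669 and shares 61 bp of exons with Fpgs, which averaged 26.7 CPM in mutants and 30.1 CPM in controls and was not called.

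Levels of different receptors were compared per length, as CPM per kb of merged exons. In mutants Eng stood highest at 231 ± 7.32 CPM per kb, followed by Acvrl1 at 166 ± 5.44, Tgfbr2 at 54.9 ± 3.29 and Bmpr2 at 22.8 ± 5.32. In controls Acvrl1 at 227.5 ± 18.9 CPM per kb and Eng at 226 ± 15.7 led and overlapped, followed by Bmpr2 at 53.8 ± 4.26 and Tgfbr2 at 50.3 ± 4.71, which also overlapped. Thus by merged exons Bmpr2 and Tgfbr2 stood at like levels in controls, and in mutants every library had Tgfbr2 above Bmpr2. The other 6 receptors lay between 6.65 CPM per kb (Bmpr1a) and 16.6 CPM per kb (Tgfbr1) in mutants, and between 7.32 CPM per kb (Bmpr1a) and 17.9 CPM per kb (Tgfbr1) in controls.

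Among these, the mutant order by merged exons was Tgfbr1, Acvr2a, Acvr1, Tgfbr3, Acvr2b and Bmpr1a. In controls it was Tgfbr1, Tgfbr3, Acvr2a, Acvr1, Acvr2b and Bmpr1a. Of the 9 neighbouring pairs in the order of all 10 receptors by merged exons, 5 overlapped between libraries in mutants and 4 in controls. In mutants the overlapping neighbours were the run from Bmpr2 through Tgfbr1, Acvr2a, Acvr1 and Tgfbr3, and the pair of Acvr2b and Bmpr1a. In controls, besides the 2 pairs above, Tgfbr1 overlapped Tgfbr3 and Acvr2b overlapped Bmpr1a. With the longest annotated transcript as the length, Bmpr2 stood at 31.8 CPM per kb in mutants and 75.0 CPM per kb in controls. It then stood above Tgfbr2 in controls, the latter at 50.9 CPM per kb, without overlap. Whether these 2 levels overlapped in controls thus depended on the length used. Ranks of other receptors depended on it too. With the longest transcript Acvr1 stood above Tgfbr1, at 20.6 against 18.8 CPM per kb in mutants and 21.2 against 20.3 in controls. Their libraries overlapped. Eng then stood just above Acvrl1 in controls, at 267.3 and 266.6 CPM per kb, also with overlap. In mutants Bmpr2 then overlapped no receptor next to it in the order.

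**Figure D3:**
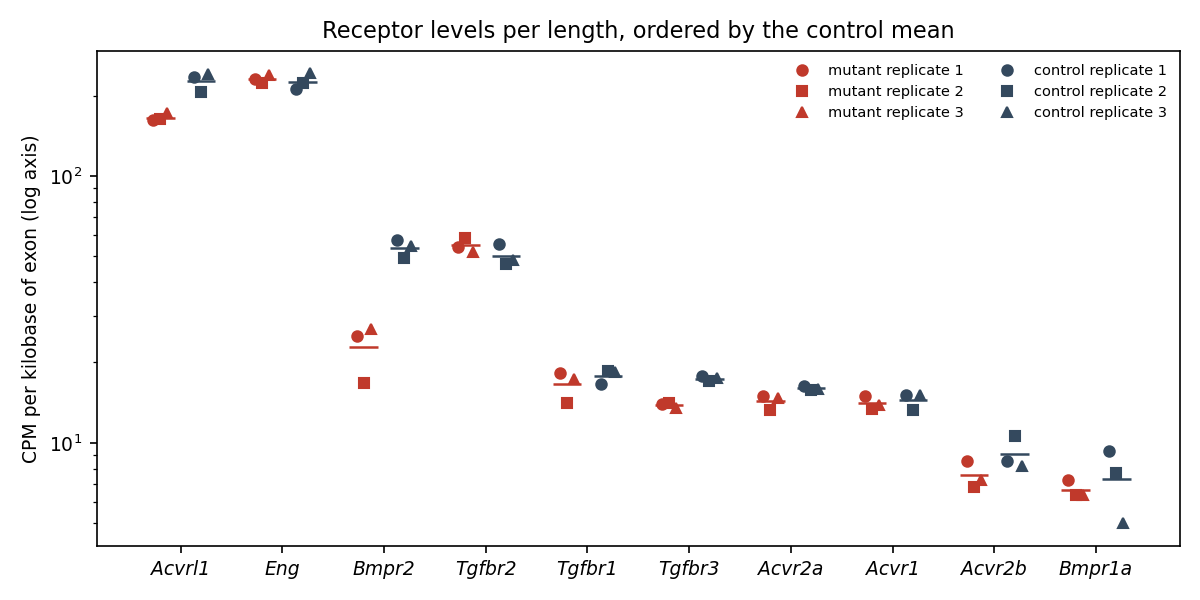
CPM per kb of merged exons for each receptor, on a log axis, in the order of the control means, with mutant points left of control points. Acvrl1 and Eng are the highest in both groups, Bmpr2 and Tgfbr2 come next, and in mutants Bmpr2 lies at 22.8 CPM per kb and Tgfbr2 at 54.9 CPM per kb.

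The makeup of the type II receptor transcripts was taken as each gene's share of the 4 per-length levels. Bmpr2 made up 24.4%, 17.6% and 26.5% in mutant libraries, against 41.7%, 40.1% and 43.1% in control libraries. Tgfbr2 made up 52.8%, 61.3% and 51.6% in mutant libraries, against 40.4%, 38.3% and 38.0% in control libraries. In each mutant library Tgfbr2 was the largest type II share, and in no control library did it take more than 40.4%. The shares depend on the length used. With the longest transcript, Bmpr2 made up 28.5 ± 5.38% in mutants and 49.0 ± 1.61% in controls, and Tgfbr2 50.2 ± 5.69% in mutants and 33.2 ± 1.15% in controls. By merged exons, Acvr2a had 14.4 ± 0.415% in mutants and 12.4 ± 0.572% in controls. By the same length Acvr2b had 7.56 ± 0.628% in mutants and 7.07 ± 1.35% in controls. The summed type II level by merged exons was 99.7 ± 3.98 CPM per kb in mutants and 129 ± 7.97 CPM per kb in controls. A share can move because another member moved, and Acvr2a and Tgfbr2 levels were not called.

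Without Tgfbr2, which does not serve BMPs or activins, the type II receptors summed to 44.7 ± 6.84 CPM per kb in mutants and 78.9 ± 3.38 CPM per kb in controls. Bmpr2 supplied 50.6 ± 4.69% of this sum in mutants and 68.1 ± 2.67% in controls, while Acvr2a supplied 32.4 ± 3.12% in mutants and 20.3 ± 0.598% in controls. With the longest transcript as the length, Bmpr2 supplied 56.9 ± 4.63% in mutants and 73.3 ± 2.56% in controls. Among type I receptors Acvrl1 was the main transcript in both groups. By merged exons it had 81.6 ± 1.47% in mutants and 85.1 ± 1.16% in controls. The type I sum by merged exons was 203 ± 6.20 CPM per kb in mutants and 267 ± 18.9 CPM per kb in controls. Co-receptors by merged exons summed to 245 ± 6.99 CPM per kb in mutants and 243 ± 15.6 CPM per kb in controls. Of this sum Eng was 94.3 ± 0.298% in mutants and 92.8 ± 0.532% in controls.

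**Figure D4:**
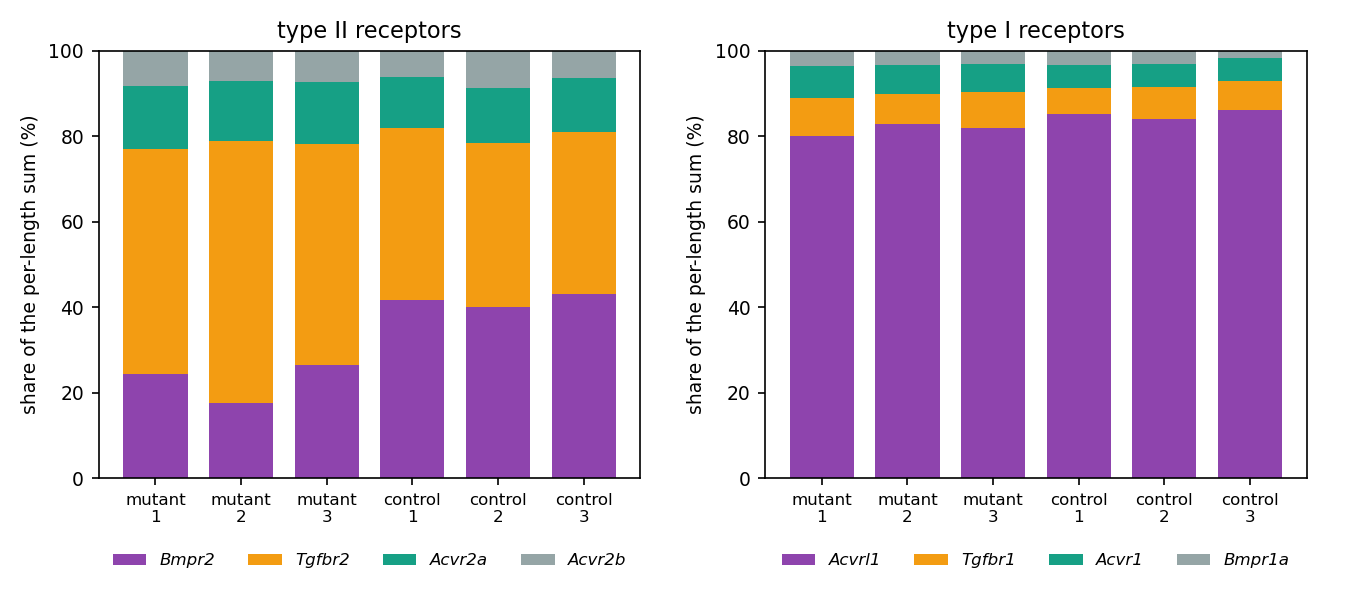
Stacked shares in percent of the type II and type I receptor transcripts in each library, from CPM per kb, with mutant libraries left of control libraries. Bmpr2 takes 17.6% to 26.5% of the type II total in mutant libraries and 40.1% to 43.1% in control libraries, while Acvrl1 takes most of the type I total in every library.

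Ratios between receptors within a library do not depend on how libraries are scaled, and 6 pairs were compared. The count ratio of Bmpr2 to Tgfbr2 was 1.02, 0.629 and 1.13 in mutant libraries, against 2.27, 2.30 and 2.49 in control libraries. Bmpr2 to Acvr2a was 5.29, 4.00 and 5.70 in mutant libraries, against 11.2, 9.83 and 10.9 in control libraries. On the log2 scale the differences were -1.39 and -1.10. Bmpr2 to Acvr2b was 13.5, 11.2 and 16.7 in mutant libraries, against 30.9, 21.3 and 30.7 in control libraries. Eng to Tgfbr3 was higher in mutants by 0.36 on the log2 scale. These 4 pairs had no overlap between groups and an exact two-sided permutation p of 0.1 each, the smallest that 20 splits of 6 libraries allow (0.15 adjusted over the 6 pairs). Acvrl1 to Tgfbr1 differed by -0.34 (exact permutation p = 0.2, adjusted 0.24) and Acvrl1 to Bmpr1a by -0.36 (exact permutation p = 0.5, adjusted 0.5), both with overlap. This exact test cannot reach 0.05 with 3 against 3 libraries.

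Genes outside the group were then ranked by how closely their profile over the 6 libraries followed that of a receptor, as the root mean square difference of log2 CPM, with each gene centred on its mean in controls. Among 8855 genes of sufficient level, the nearest to Bmpr2 was Calcrl, the calcitonin receptor-like receptor for adrenomedullin, at 0.0791. It had 736, 470 and 892 CPM in mutant libraries, against 1727, 1517 and 1688 CPM in control libraries, and its call (edgeR adjusted p = 0.0270) was lost without any 1 control, without mutant library 1 and with no filter on low counts, at 0.0714 to 0.113. Next came Cyyr1 at 0.123 and Fmo1, a flavin-containing monooxygenase, at 0.141. Fmo1 had 136, 96.1 and 150.4 CPM in mutant libraries, against 291, 338 and 291 CPM in control libraries. Like Bmpr2, all 3 were lowest in mutant library 2 and highest in mutant library 3. They were chosen for their likeness to Bmpr2 over these same libraries, so the shared order follows from the choice and is no separate result. Nearest to Acvrl1 were Cyth3 at 0.0347, Arhgef10 at 0.0420 and Add3 at 0.0442, and nearest to Eng were Tecpr2 at 0.0222, Smndc1 at 0.0267 and Cenpj at 0.0282.

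**Figure D5:**
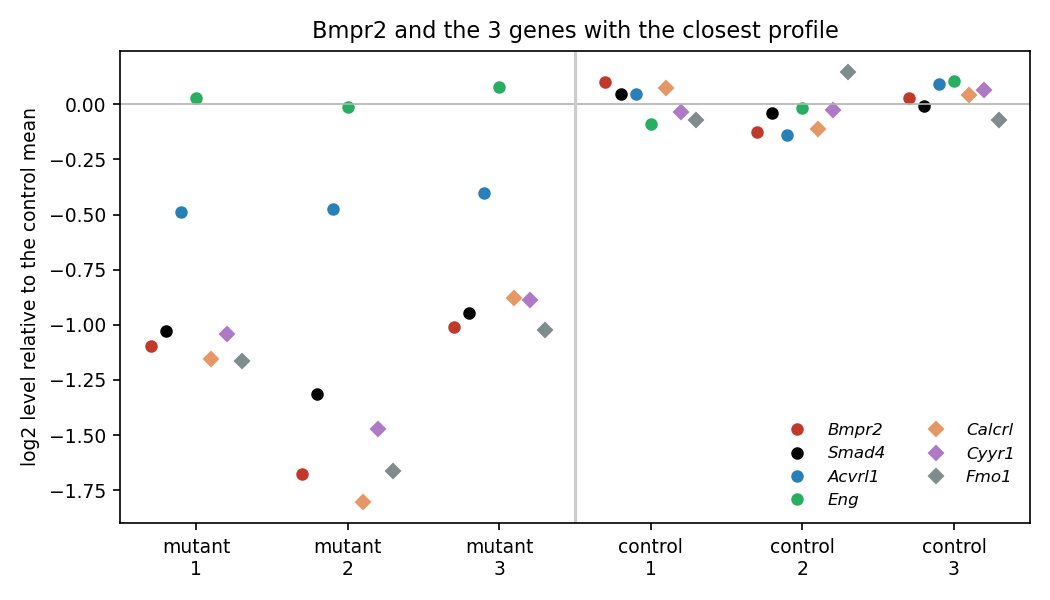
Log2 level relative to the control mean in each library for Bmpr2, Smad4, Acvrl1 and Eng, and for Calcrl, Cyyr1 and Fmo1, the 3 genes nearest to the Bmpr2 profile, with mutant libraries left of control libraries. Calcrl follows Bmpr2 at a root mean square difference of 0.0791. Bmpr2 and Smad4 are both lowest in mutant library 2, as are 35.3% of all genes tested among the mutants.

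The other receptors of the family were sparse or not called, with 1 exception. Bambi, a decoy receptor without a kinase domain that blocks BMP and TGF-beta signals, had 87.9 ± 11.7 CPM in mutants and 40.3 ± 0.477 CPM in controls. It rose in mutants (log2 fold change 1.12, SE 0.11, edgeR adjusted p = 0.00076). Of 9 genes on this list 6 were tested, 1 rose and 0 fell, with a median of -0.06. For comparison, 1.93% of all genes tested were called higher and 1.34% lower. Acvr1b, which encodes ALK4, averaged 72.4 ± 7.27 CPM in mutants and 88.9 ± 2.54 CPM in controls and was not called (adjusted p = 0.170). The BMP co-receptor Rgmb averaged 38.7 CPM in mutants and 36.1 CPM in controls, and Rgma 6.70 CPM in mutants and 6.30 CPM in controls. Bmpr1b, which encodes ALK6, averaged 1.44 CPM in mutants and 1.68 CPM in controls, and Amhr2, the anti-Müllerian hormone receptor, 1.41 CPM in mutants and 2.25 CPM in controls. Acvr1c, Hjv and Tdgf1 were too low to test.

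Among genes that act on the receptors inside the cell or at its surface, 0 of 20 were called by edgeR, with 4 at an unadjusted p under 0.05, 1 called by DESeq2 and 0 by limma-voom. Over all genes tested 14.0% had an unadjusted edgeR p under 0.05. EdgeR called 3.27% of all genes, DESeq2 5.05% and limma-voom 2.96%. Among the 8 SMADs, 1 rose and 1 fell, and the one that fell was Smad4 itself. A further SMAD, Smad6, was called lower in 5 of the 14 alternatives, among them the fits without control library 2 and without mutant library 3. Smad1, a receptor SMAD of the BMP branch, had 127 ± 11.2 CPM in mutants and 56.1 ± 1.80 CPM in controls (log2 fold change 1.18, edgeR adjusted p = 0.00026). The BMP receptor SMAD Smad5 averaged 244 CPM in mutants and 199 CPM in controls (adjusted p = 0.0910), and Smad9 had a log2 fold change of -0.28 (adjusted p = 0.509). The inhibitory Smad6 had 227 ± 35.5 CPM in mutants and 336 ± 49.2 CPM in controls (adjusted p = 0.0656), and Smad7 averaged 126 CPM in mutants and 147 CPM in controls (adjusted p = 0.233). Smad2 and Smad3, the TGF-beta and activin SMADs, had log2 fold changes of -0.16 and 0.09 and were not called.

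Of 34 ligand genes 22 were tested, 4 rose and 1 fell, with a median of 0.04. Over all genes tested 1.93% were called higher and 1.34% lower. Inhbb, a subunit of activin B, had 143 ± 28.3 CPM in mutants and 42.0 ± 9.35 CPM in controls (log2 fold change 1.77, edgeR adjusted p = 0.00275). Inhba, a subunit of activin A, had 9.68 ± 1.19 CPM in mutants and 3.26 ± 1.24 CPM in controls (log2 fold change 1.55, adjusted p = 0.00833). Bmp2 had 25.0 ± 5.10 CPM in mutants and 12.6 ± 0.780 CPM in controls (log2 fold change 0.99), and Bmp7 had 5.61 ± 1.51 CPM in mutants and 1.33 ± 0.289 CPM in controls (log2 fold change 2.07). Bmp6 fell to 133 ± 3.67 CPM in mutants, against 174 ± 2.22 CPM in controls (adjusted p = 0.0176), a call lost in 5 of the 14 alternatives. Among 20 tested secreted modulators 3 had an unadjusted edgeR p under 0.05, where 14.0% of all genes passed. Of the 20, edgeR called 0 and DESeq2, which called 5.05% of all genes, called 1. This was Sost, which edgeR also called lower with a replicate block and without mutant library 3, at adjusted p of 0.0095 and 0.0131.

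Genes that BMP9 and ALK1 are known to induce in endothelium had 4 of 15 members lower and 0 higher, with a median of -0.19. Over all genes tested 1.34% were called lower and 1.93% higher. At an unadjusted edgeR p under 0.05 in either direction there were 8 of the 15, where 14.0% of all genes passed. Among these Cdkn1a was higher in mutants (log2 fold change 0.37) and the rest were lower. Gja4, which encodes connexin 37, had 79.1 ± 6.36 CPM in mutants and 149 ± 5.01 CPM in controls (log2 fold change -0.91, edgeR adjusted p = 0.00065). The other called targets were Tmem100, Id2 and Atoh8, at edgeR adjusted p of 0.0280, 0.0116 and 0.0450. The count ran from 1 to 4 when single libraries were left out, at 1 without mutant library 2 and at 2 without control library 1, control library 3 or mutant library 1. Atoh8 was lost in each of these fits, Tmem100 without control library 1 or 3 or mutant library 1 or 2, and Id2 without control library 2 or mutant library 2, at adjusted p of 0.0514 to 0.164. Id1 averaged 108 CPM in mutants and 123 CPM in controls and Id3 139 CPM in mutants and 152 CPM in controls, neither called. Of 15 TGF-beta targets 1 rose and 0 fell, with a median of 0.10, and 6 had an unadjusted edgeR p under 0.05. Among these Smad7, which is on both lists, was lower in mutants (log2 fold change -0.23) and the rest were higher. The target called higher was Pmepa1, an inhibitor of the pathway, with a log2 fold change of 0.61 (SE 0.13, edgeR adjusted p = 0.0270). That call was lost without control library 2 or 3 and without mutant library 1 or 2, at 0.0613 to 0.119. The count of higher targets was 3 without mutant library 3, with no filter on low counts and with DESeq2, where Bhlhe40 and Tgfbi were added, and 2 with library totals and with a replicate block.

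Endothelial markers had 1 of 12 genes higher (Robo4, log2 fold change 0.43) and 1 lower (Tek, -0.50), a median log2 fold change of 0.04, and sums of 11048 to 11523 CPM in mutants and 10386 to 11555 CPM in controls. Both calls were lost without control library 3 or mutant library 2, and that of Robo4 also without control library 1 or mutant library 1. With all libraries, 1.93% of all genes tested were called higher and 1.34% lower. Pecam1, which encodes CD31, averaged 1719 ± 21.8 CPM in mutants and 1570.0 ± 91.3 CPM in controls. Among 11 lists for other cell types, sums overlapped between groups in 8. They did not for lymphatic markers, at 1529 to 1594 CPM in mutants and 1169 to 1415 CPM in controls, but their median log2 fold change was -0.03. That gap came from Lyve1, a hyaluronan receptor, at 968 ± 17.2 CPM in mutants and 713 ± 50.1 CPM in controls (log2 fold change 0.44, edgeR adjusted p = 0.0166), a call lost without control library 2, mutant library 1 or mutant library 2. Prox1, Mmrn1 and Reln had estimates below 0, no other lymphatic marker was called, and Ccl21a was at 0. Lymphocyte markers summed to 153 to 208 CPM in mutants and 133 to 149 CPM in controls, and erythroid markers to 6.53 to 8.88 CPM in mutants and 10.2 to 10.5 CPM in controls, with all 4 globin genes at 0. Fibroblast markers summed to 1936 to 2729 CPM in mutants and 1893 to 2485 CPM in controls, highest in mutant library 2, the library lowest for Bmpr2. Surfactant gene Sftpc averaged 1052 CPM in mutants and 1092 CPM in controls, the fibronectin gene Fn1, the most abundant of the fibroblast list and also a TGF-beta target, 719.7 CPM in mutants and 789 CPM in controls, and the lysozyme gene Lyz2 372 CPM in mutants and 437 CPM in controls. The part of these other cell types in the receptor values was not tested.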

How the data were processed

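Gene counts from 3 mutant and 3 control libraries of CD31-selected lung cells were used. The authors deposited raw counts per gene and library, with no normalization, and the library files and the series table differed in 0 values. Per the submitters' processing notes the build was mm10 and DESeq2 was used, with no version or role. For the aligner, the counting tool, the annotation and the use of strand, the sources used here give nothing. Per the labels' protocols, polyadenylated RNA was made into TruSeq libraries. Left out were reads matching no feature (53.9% to 58.2% of a library) and ambiguous ones (0.288% to 0.366%). Assigned reads were 14093564 to 21113926 per library.

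The 10 receptors, the gene lists and the marker lists were chosen with earlier results of these data known. Of 219 listed symbols all matched, 3 of them through an older symbol. Counts were fitted in R 4.3.3 with edgeR 4.0.16 (filterByExpr, TMM, robust quasi-likelihood, mutant against control, all 6 libraries, no covariate), and p-values were adjusted over 14934 genes. Replicates of a group differed by more than sampling noise in every pair, at chi-square values of 12.5 to 23.0 for each degree of freedom. The edgeR p-values set a group difference against the spread between these samples, estimated with information shared across genes. The permutation p-values rank the observed split among all splits. Levels per length used GENCODE M21 exon lengths. Exact permutation tests served for ratios of receptors. Scripts were tested on simulated data. Alternatives were other scalings (DESeq2 size factors, upper quartile, library totals), no filter, DESeq2 1.42.0, limma-voom (limma 3.58.1), a fit without the robust option, a replicate block, each library left out, and the longest transcript as length.

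The named genes were the 10 receptors, Smad4, every tested gene of the other family receptors and SMADs, up to 6 called genes of each other list, the 3 nearest profiles to Bmpr2, Acvrl1 and Eng (mean log2 CPM of at least 4, pseudocount 0.5 CPM), and, from each list of other cell types, the marker with the highest mean, of which only some are printed. Orc4 and Fpgs (exon overlap), Id1, Id3, Sost, Bhlhe40, Tgfbi, Ccl21a, Mmrn1, Prox1, Reln and the endothelial markers named were added after their values were seen.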

Additional observations from a re-analysis of the deposited data

How the results depend on the processing

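Bmpr2 was called lower under all 14 alternatives, with log2 fold changes of -1.36 to -1.06, and 0 receptors were called higher under any. The count of receptors called lower was 2 or 3 with the libraries complete, and 1 to 2 with single libraries left out. It was 1, with Acvrl1 lost, when control 3, mutant 1 or mutant 2 was left out. With single libraries left out, the log2 fold change of Bmpr1a ran from -0.352 to 0.0761 and that of Eng from -0.0128 to 0.0864, and both changed sign only without control replicate 1, neither called. Without control replicate 3 the Acvrl1 to Bmpr1a difference was -0.06. The cause was not tested. Over all genes 488 were called, against 754 with DESeq2, and against 211, 293 and 325 when mutant 2, control 2 or control 3 was left out. Same-numbered libraries deviated together with correlations across genes of -0.0096, 0.019 and 0.156, so the replicate numbers were not taken to pair the samples. With the replicate block 466 genes were called, Bmpr2 had a log2 fold change of -1.26 (edgeR adjusted p = 0.000229), Acvrl1 -0.46 (adjusted p = 0.0298), and the same 2 receptors were called lower. Depth limits the least abundant genes, such as Bmpr1b and Amhr2.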

Other observations

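Of the 10 receptors 7 had their lowest mutant value in mutant library 2, 2 in library 3 and 1 in library 1. Over all 14934 tested genes, 35.3% were lowest in library 2, 32.9% in library 3 and 31.8% in library 1. Acvrl1, Tgfbr2 and Tgfbr3 were the receptors that were not lowest in library 2. The receptors were measured in the same libraries and are not independent of each other, so this count carries no test.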
